A study of Mus musculus with 18 samples.

Results

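B2 and B3 elements are short interspersed elements (SINEs) of rodents, and 5 of the 1365 repeat rows in each table analysed here belong to their class. The members are the rows chosen by their repeat class, SINE/B2, which is part of the row name: B2_Mm1a, B2_Mm1t, B2_Mm2, B3 and B3A. Each row adds up the reads of all genomic copies of that subfamily, and all 5 rows were tested in all 3 tables. RNA came from mouse embryonic stem cells (ESCs) kept in 2i medium, bone-marrow-derived macrophages grown with M-CSF, and neuronal progenitor cells (NPCs) grown with EGF and FGF. For each cell type 3 untreated libraries were set against 3 libraries from cells given NVP-AUY922, which inhibits the chaperone HSP90, for 24 h. The dose was 100 nM for ESCs, 500 nM for macrophages and 50 nM for NPCs. The ESCs and NPCs had the strain background 129S1/CASTEiJ and the macrophages BALBC/C57BL6, so that dose, cell type and, for macrophages, strain cannot be told apart. The labels name no heat treatment. The labels do not say whether replicates were separate cultures, so p-values cover only the spread between these libraries and this spread may be technical. The tables hold repeats and no genes, so the cell types could not be checked against marker genes.

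B2 elements derive from a transfer RNA and carry an internal promoter for RNA polymerase III. They spread by being copied through RNA with the help of L1 proteins. B2 RNA is known to become more abundant after heat shock in mouse cells, where it binds RNA polymerase II and holds down transcription of many genes. HSP90 keeps the heat shock factor HSF1 inactive, and its inhibitors are known to switch on heat shock genes. Many B2 copies also lie inside introns and untranslated parts of genes, where RNA polymerase II transcribes them as part of the host transcript. B2_Mm1a and B2_Mm1t are the youngest subfamilies of the class, B2_Mm2 is older, and B3 and B3A are the most diverged from the young ones. The libraries were poly(A)-selected, which depletes RNA without a poly(A) tail, although B2 transcripts of polymerase III can be polyadenylated. Reads from such transcripts and from host genes are summed in the same row.

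The tables give for every row a base mean, which is the mean of normalised reads over the 6 libraries of a cell type, and a log2 fold change between the groups with its standard error (SE). They give no value per library, and the numerator of the fold change is not named. A row is therefore said to lie on the positive or the negative side, without saying which side stands for treated cells. Nor do the sources say whether a side stands for the same group from table to table.

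In ESCs the young B2 elements lay far out on the negative side and the B3 elements lay close to 0. In the ESC values of the authors' deposited table, B2_Mm1a lay at -1.17 ± 0.21 (log2 fold change ± SE), a 2.25-fold difference between the groups, with a base mean of 200237. For B2_Mm1t the authors' deposited table gives -1.16 ± 0.19, or 2.23-fold, and a base mean of 131775. The pair was thus nearly the same in size, and the 95% intervals (computed from the SEs) ran from -1.57 to -0.77 for B2_Mm1a and from -1.53 to -0.78 for B2_Mm1t. For B2_Mm2 the same quantity in the authors' deposited table is -0.45 ± 0.09, or 1.37-fold, at a base mean of 91338. The adjusted p-values of the authors' deposited table were 1.922e-07 for B2_Mm1a, 2.710e-08 for B2_Mm1t and 1.469e-05 for B2_Mm2.

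The B3 rows of ESCs did not pass. The authors' deposited table gives B3 a log2 fold change of -0.10 ± 0.07 (adjusted p 0.3937) and B3A one of -0.03 ± 0.07 (adjusted p 0.850). Their base means were 105230 and 50028, so that B3 lay above B2_Mm2 and below the young pair, and B3A below all 3 B2 rows. The 95% intervals ran from -0.24 to 0.04 for B3 and from -0.16 to 0.11 for B3A, so that for B3 the interval reached a 1.18-fold difference. Of the 5 members 3 thus passed an adjusted p of 0.05, all on the negative side. Of all 1132 tested ESC rows, 22.2% passed, and 12.0% passed on the negative side. B2_Mm1a and B2_Mm1t held the places 12 and 13 from the negative end of these rows, and B2_Mm2 the place 104.

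**Figure D1:**
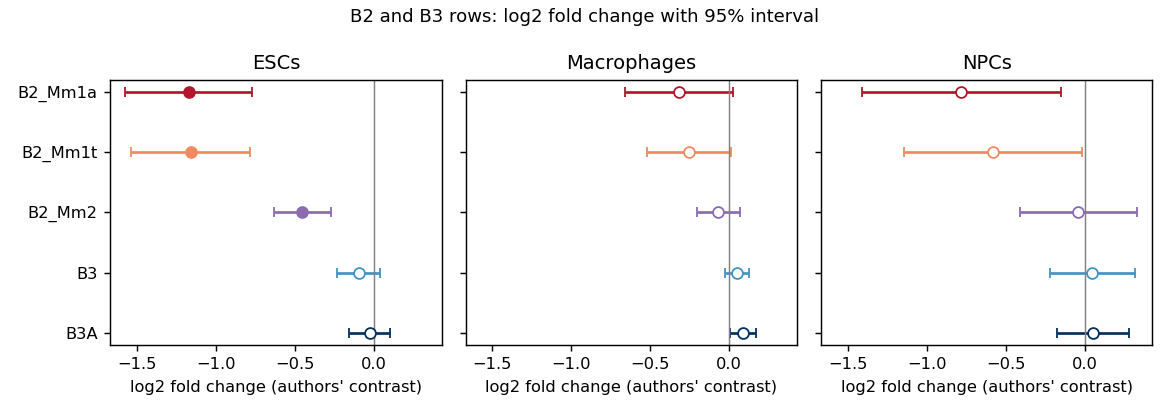
The plot of member values gives the log2 fold change of each B2 and B3 row (x axis) in ESCs, macrophages and NPCs, with bars for the 95% interval; filled points passed an adjusted p of 0.05. In all 3 panels B2_Mm1a is the most negative row and B3A the most positive, and only the 3 B2 rows of ESCs are filled.

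In macrophages the same young elements leaned to the negative side by far less, and none of the 5 rows passed. The authors' deposited table gives B2_Mm1a -0.32 ± 0.17 (adjusted p 0.1829) and B2_Mm1t -0.25 ± 0.14 (adjusted p 0.1711). Their 95% intervals ran from -0.66 to 0.02 and from -0.52 to 0.01, so that for B2_Mm1a the interval reached a 1.58-fold difference. B2_Mm2 has -0.07 ± 0.07 and an adjusted p of 0.5364 by the authors' deposited table. B3 and B3A lay on the other side of 0, with 0.05 ± 0.04 and 0.09 ± 0.04 by the authors' deposited table. B3A had the only unadjusted p under 0.05 of the 5, at 0.03003, and the authors' deposited table adjusts it to 0.09764. Of all 1255 tested macrophage rows, 25.8% passed in the authors' DESeq2 test.

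In NPCs the young pair again lay on the negative side, with wide errors, and none of the 5 rows passed. The authors' deposited table gives B2_Mm1a -0.78 ± 0.32 (adjusted p 0.1035) and B2_Mm1t -0.58 ± 0.29 (adjusted p 0.2192). Before adjustment the authors' deposited table has p-values of 0.01558 and 0.04335 for them, the only 2 of the 5 under 0.05. The 95% interval of B2_Mm1a, from -1.41 to -0.15, takes in its ESC value. That of B2_Mm1t, from -1.15 to -0.02, falls just short of its ESC value of -1.16. B2_Mm2, B3 and B3A had -0.04 ± 0.19, 0.05 ± 0.14 and 0.05 ± 0.12 by the authors' deposited table, and their adjusted p-values were 0.9541, 0.915 and 0.8915. Of all 1249 tested NPC rows, 11.8% passed in the authors' DESeq2 test.

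The members had the same order in all 3 tables as deposited. With the sign of a table turned its order would be reversed, and the sources do not settle the sign. From the most negative to the most positive value it was B2_Mm1a, B2_Mm1t, B2_Mm2, B3 and B3A in ESCs, macrophages and NPCs alike. The distance from the first to the last was 1.15 on the log2 scale for ESCs, 0.41 for macrophages and 0.83 for NPCs. The rows of a table share libraries and can share reads, and their covariance is not in the tables. Differences between members were therefore set against a 95% interval built from the sum of both SEs, the widest interval that any correlation allows, with no test. By that measure 8 of the 10 member pairs stood apart in ESCs, and 0 of 10 in macrophages and 0 of 10 in NPCs.

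The 2 ESC pairs that did not stand apart were those within the young B2 and within the B3 rows. B2_Mm1a and B2_Mm1t differed by -0.01, with an interval from -0.79 to 0.76, and B3 and B3A by -0.07, with an interval from -0.34 to 0.20. B2_Mm2 stood between these pairs. It was less negative than B2_Mm1a, with a difference of B2_Mm1a minus B2_Mm2 of -0.72 (interval -1.30 to -0.14). It was more negative than B3, with a difference of B2_Mm2 minus B3 of -0.36 (interval -0.68 to -0.03). In macrophages and NPCs the intervals of B2_Mm1a minus B3A just took in 0. They ran from -0.83 to 0.01 around -0.41 in macrophages and from -1.69 to 0.03 around -0.83 in NPCs.

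The composition of the reads differed between cell types in the same subfamilies. The 5 rows together held 15.1% of the summed base means of all repeats for ESCs, 11.9% for macrophages and 13.3% for NPCs. Among ESC rows B2_Mm1a alone held 5.21% and had the highest base mean of all 1365 rows, ahead of every retrovirus and L1 row. B2_Mm1t followed with 3.43%, B3 with 2.74%, B2_Mm2 with 2.38% and B3A with 1.30%. In macrophages and NPCs B3 had the highest base mean of all rows, with 4.42% and 5.0% of the total. B2_Mm1a held only 1.51% there in macrophages and 1.61% in NPCs, at the places 14 and 13 of 1365. These shares count reads, not RNA per copy or per length, because the genomic length of each subfamily is not in the tables.

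**Figure D2:**
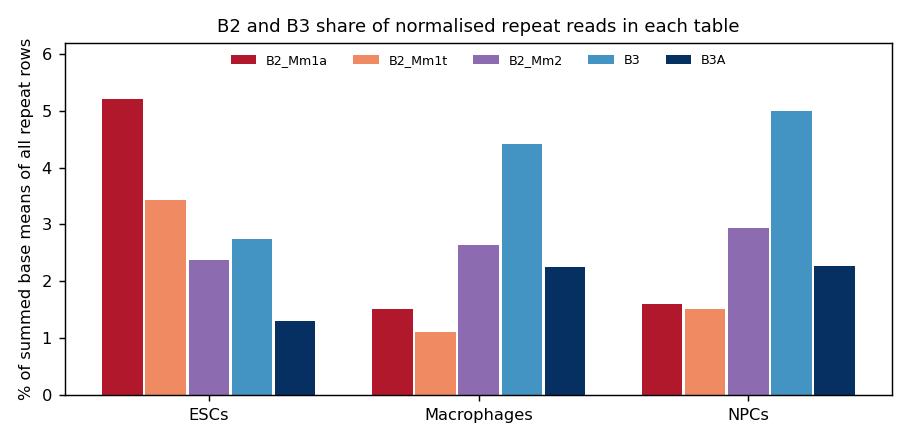
The plot of read shares gives each member's base mean as a percent of the summed base means of all repeat rows of the same table, for ESCs, macrophages and NPCs. B2_Mm1a is the tallest bar in ESCs at 5.21%, while B3 is the tallest in macrophages at 4.42% and in NPCs at 5.0%.

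Set against B3 of the same table, the members can be compared between cell types without their genomic lengths, since a fixed length cancels when such ratios are set side by side. The ratio of 2 base means still depends on the authors' size factors where it differs between libraries. For each B3 read there were 1.90 B2_Mm1a reads in the ESC base means, 0.34 in macrophages and 0.32 in NPCs. The ratio of B2_Mm1t to B3 was 1.25, 0.25 and 0.30 in the same order, and that of B2_Mm2 to B3 was 0.87, 0.59 and 0.59. B3A to B3 varied least, at 0.48, 0.51 and 0.45. The base mean mixes treated and untreated libraries, so the ratio was also split by group with the fold changes. In ESCs it came to 1.21 B2_Mm1a reads per B3 read in the numerator group and 2.55 in the other, whichever is the treated one. The ratios in the groups of macrophages were 0.30 and 0.39, and in NPCs 0.23 and 0.41, all below both ESC groups. No error can be given for these ratios, since values per library are not in the tables. The doses differ between all 3 cell types, and the macrophages also differ in strain background.

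Because the young B2 rows were so abundant, their fold changes stood for many reads. The base mean and the fold change together imply the mean normalised reads of each group, under the assumption that the deposited fold change is the ratio of the group means. For B2_Mm1a in ESCs the implied means were 123098 and 277375, a gap of 154276 normalised reads, the largest of all 1365 rows. B2_Mm1t held place 4 by this gap with 100496, behind MMETn-int with 125340 on the negative side and IAPEz-int with 101937 on the positive side. The pair B2_Mm1a and B2_Mm1t made up 87.5% of the implied gap summed over the 5 members in ESCs. In NPCs B2_Mm1a and B2_Mm1t held the places 3 and 4 by gap, with 17663 and 12502 normalised reads, although neither passed the test. In macrophages, where neither passed, B2_Mm1a held place 5 with 6555 and B2_Mm1t place 15 with 3849. The rows used for the authors' size factors are not named in the labels or headers.

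**Figure D3:**
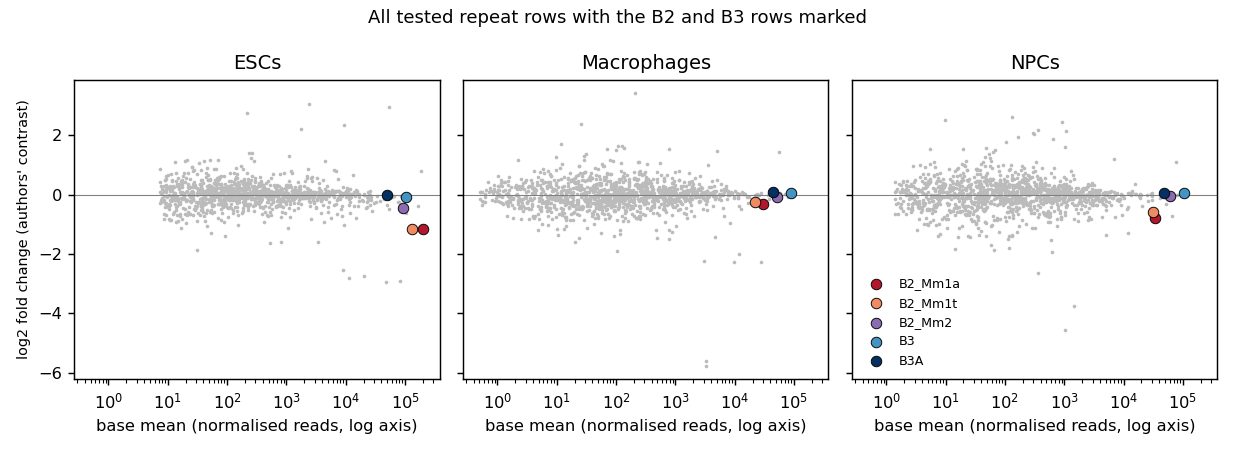
The plot of all tested rows sets log2 fold change (y axis) against base mean (x axis, log scale) for each cell type, with grey points for the other repeat rows. In ESCs the B2_Mm1a and B2_Mm1t points lie at the far right near -1.2, while B3 and B3A lie near 0 at the lower base means of 105230 and 50028.

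The young B2 rows were also among the least precise of the abundant rows. SEs normally fall with the number of reads, and the median SE of tested rows with base means of 1000 or more was 0.077 for ESCs, 0.070 for macrophages and 0.173 for NPCs. The SE of B2_Mm1a in ESCs, 0.205 in the authors' deposited table, exceeded that of 316 of these 319 rows. B2_Mm1t in ESCs, with 0.191 in the authors' deposited table, exceeded 315 of them. In macrophages the SE of B2_Mm1a exceeded 95.8% of 237 such rows and that of B2_Mm1t 91.1%. In NPCs the shares were 93.1% and 85.4% of 247 rows. B3 and B3A were among the more precise rows: the SE of B3 in macrophages exceeded only 4.64% of the rows, and that of B3A in ESCs only 10.0%. Which libraries set these SEs cannot be read from the tables, and the part of a single library in the result was not tested.

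**Figure D4:**
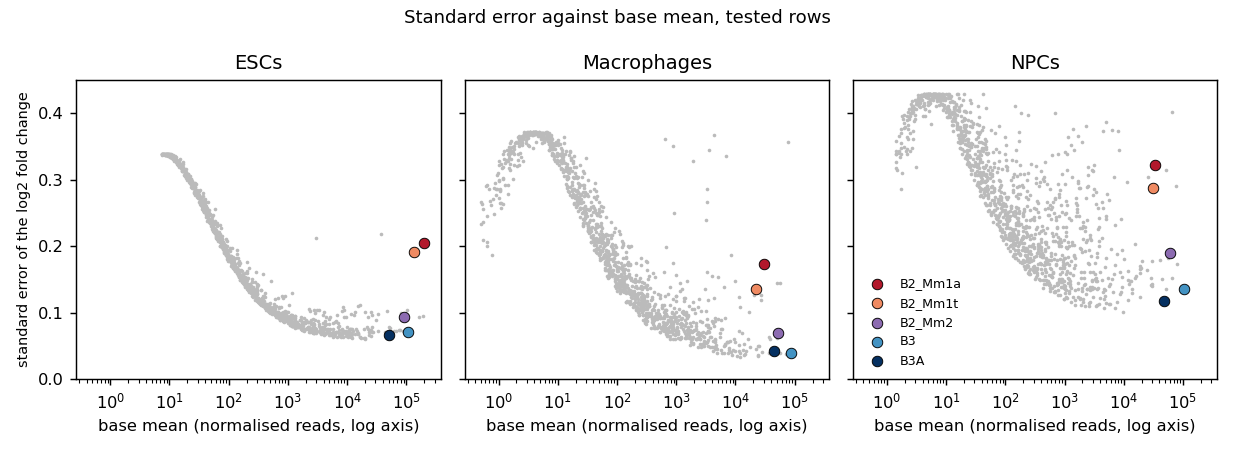
The plot of precision sets the SE of the log2 fold change (y axis) against base mean (x axis, log scale) for all tested rows of each cell type. B2_Mm1a and B2_Mm1t lie above most abundant rows in each panel, for example at 0.205 and 0.191 against a median of 0.077 for ESC rows with base means of 1000 or more, and B3 and B3A lie among the lower ones.

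Whether the fold changes of a member differ between cell types was tested directly, as the difference of its log2 fold changes over the root of the summed squared SEs. This takes the tables as oriented alike. Between ESCs and macrophages 3 of the 5 members differed at an adjusted p of 0.05, against 23.7% of the 1124 rows tested in both. The difference ESC minus macrophage was -0.86 ± 0.27 for B2_Mm1a, with an adjusted p of 0.00926. For B2_Mm1t it was -0.91 ± 0.23 with an adjusted p of 0.00105, and for B2_Mm2 -0.38 ± 0.12 with an adjusted p of 0.00624. These 3 rows also differed with the sign of the macrophage table turned, for which the share over all rows was not computed. B3 and B3A gave -0.15 ± 0.08 and -0.12 ± 0.08, with adjusted p-values of 0.19 and 0.317.

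Between ESCs and NPCs 0 of the 5 members differed at an adjusted p of 0.05 by this normal test, and 0 had an unadjusted p under 0.05, against 12.6% of 1126 rows past the adjusted threshold. The difference was -0.39 for B2_Mm1a, with a 95% interval from -1.14 to 0.36. It was -0.58 for B2_Mm1t (-1.25 to 0.10) and -0.41 for B2_Mm2 (-0.83 to 0.001). These intervals are wide, so the test does not show that the cell types act alike. With the sign of the NPC table turned, B2_Mm1a and B2_Mm1t would differ, and the share over all rows was not computed for that turn. Between macrophages and NPCs 0 of 5 passed and 0 had an unadjusted p under 0.05, against 12.4% of 1222 rows past the threshold. There B2_Mm1a gave 0.46 with an interval from -0.25 to 1.18. The SE of B2_Mm1a was 0.322 in NPCs against 0.205 in ESCs by the authors' deposited tables.

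In ESCs all SINE rows outside the class lay closer to 0 than B2_Mm1a and B2_Mm1t, the lowest at -0.65. B1 elements, which derive from the 7SL RNA of the signal recognition particle and form the class SINE/Alu with their relatives, had 0 positive and 2 negative rows of 16 in ESCs, with a median of -0.08. The median over all tested ESC rows was 0.002, and that of the 5 B2 and B3 rows was -0.45. Over all tested rows, 22.2% passed on either side in ESCs, 25.8% in macrophages and 11.8% in NPCs. The 2 SINE/Alu rows were B1_Mm, the row of the young B1 elements, and B1_Mur3. The authors' deposited table gives them -0.24 ± 0.07 (adjusted p 0.006205) and -0.20 ± 0.08 (adjusted p 0.03896). B1_Mur3 was named after its value was seen. B1_Mus1 and B1_Mus2 did not pass in ESCs, with -0.08 ± 0.07 and -0.15 ± 0.07 by the authors' deposited table, and 15 of the 16 class values lay below 0. Among all 1132 tested ESC rows, 561 lay below 0. In macrophages 1 row of the class was negative and 0 positive, with a median of -0.01, and in NPCs 0 of 16 passed, 0 at an unadjusted p under 0.05, with a median of -0.01. The macrophage row was FAM, with -0.32 ± 0.09 by the authors' deposited table, also named after its value was seen.

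The class SINE/B4 holds composite elements made of a B1-like and an ID-like part, and 0 of its 4 rows passed in any of the 3 tables, with 0 at an unadjusted p under 0.05 as well. By the authors' deposited table ID_B1, its most abundant row, had -0.05 ± 0.07 in ESCs, 0.01 ± 0.04 in macrophages and -0.03 ± 0.17 in NPCs. ID elements, small SINEs related to the BC1 RNA gene, had 2 positive rows of 4 in macrophages and 0 of 4 in ESCs and NPCs, where 0 had an unadjusted p under 0.05. By the authors' deposited table these were ID with 0.13 ± 0.05 and ID4 with 0.14 ± 0.04, on the side opposite to the young B2 rows. The ancient class SINE/MIR had 1 negative row of 5 in macrophages, MIR3 with -0.39 ± 0.07 by the authors' deposited table, and 0 of 5 in ESCs and NPCs, with 0 at an unadjusted p under 0.05. Of the 5 rows of other SINE classes 1 passed in NPCs, MamSINE1 with -1.53 ± 0.26 at a base mean of 587 by the authors' deposited table, and 0 in ESCs and macrophages, where 2 and 1 had an unadjusted p under 0.05. MIR3 and MamSINE1 were named after their values were seen. Over all tested rows, 22.2% passed on either side in ESCs, 25.8% in macrophages and 11.8% in NPCs.

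**Figure D5:**
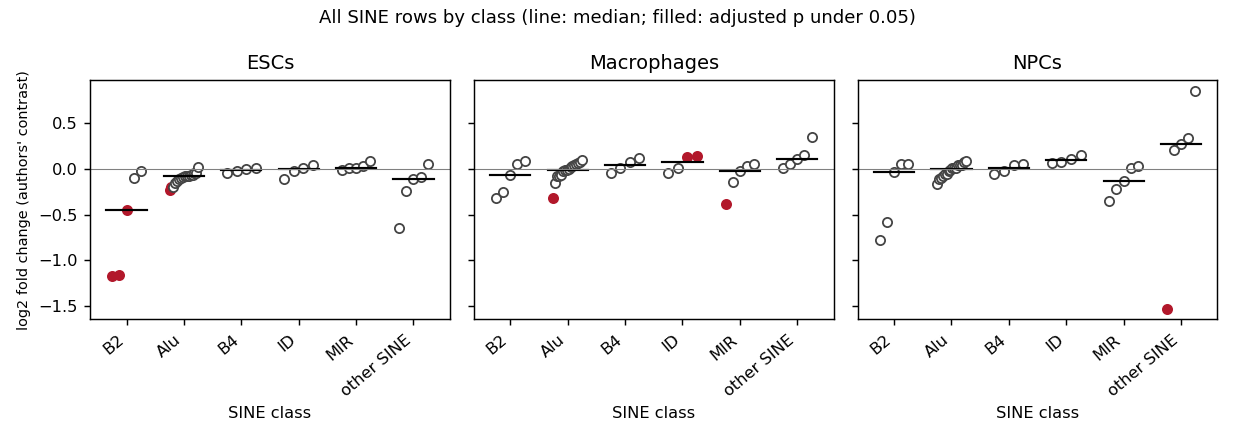
The plot of SINE classes gives the log2 fold change of every SINE row (y axis) by class and cell type, with a line at the class median and filled points for rows with an adjusted p under 0.05. In ESCs the 2 lowest points are B2_Mm1a and B2_Mm1t near -1.2, and the class medians other than that of B2 lie between -0.11 and 0.01.

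The polymerase III rows 7SK, 7SLRNA, 5S, U6 and BC1_Mm had fewer reads than any B2 or B3 row of the same cell type. The classes counted here also hold LSU-rRNA_Hsa, a ribosomal RNA row. Its base mean in NPCs was 66017, above every member but B3. Of the rows classed as scRNA, srpRNA, snRNA, rRNA or RNA, 0 were positive and 1 negative of 13 tested in ESCs, 3 and 0 of 17 in macrophages, and 0 and 0 of 18 in NPCs, where 1 had an unadjusted p under 0.05. Over all tested rows, the shares past the test on either side were 22.2%, 25.8% and 11.8% in the same order. The negative ESC row was BC1_Mm, which has -0.35 ± 0.10 and an adjusted p of 0.004646 by the authors' deposited table. It is named for the neuronal BC1 RNA, but a row sums all genomic copies of its repeat. Its base means were 4139 in ESCs, 3421 in macrophages and 3808 in NPCs. BC1_Mm did not pass in macrophages or NPCs, with -0.13 ± 0.07 and 0.04 ± 0.20 by the authors' deposited table. 7SLRNA, the RNA of the signal recognition particle, and 7SK, which holds the elongation factor P-TEFb inactive, both have 0.36 in macrophages by the authors' deposited table, with SE 0.10 and 0.13. The adjusted p-values in the authors' deposited table are 0.001426 for 7SLRNA and 0.02586 for 7SK, and neither passed in ESCs or NPCs. The other positive macrophage row was the spliceosomal U2 RNA, a polymerase II transcript, with 0.31 ± 0.11 by the authors' deposited table, named after its value was seen. For ESCs the authors' deposited table has 7SLRNA at 0.17 ± 0.14 and 7SK at -0.08 ± 0.18. For NPCs it has 7SLRNA at 0.46 ± 0.20, above its macrophage value but with an adjusted p of 0.1358, and 7SK at 0.09 ± 0.20. The rows 5S and U6 did not pass in any of the 3 tables. The base means of 7SK, 7SLRNA, 5S and U6 in ESCs ran from 94.0 to 306, and that of BC1_Mm was 4139, against 50028 for B3A, the lowest of the 5 members.

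The rows of any class whose fold changes were most like those of the young B2 pair were sought by the Euclidean distance over the 3 log2 fold changes, from the mean of B2_Mm1a and B2_Mm1t (-1.17, -0.28 and -0.68 in ESCs, macrophages and NPCs). Among 714 rows whose base means reached 50 in every table, MER34B-int, the internal part of an ERV1 retrovirus, was nearest at a distance of 0.35. Its values by the authors' deposited tables are -1.12, -0.57 and -0.88 in the same order of cell types. MMERVK9E_I-int, an ERVK element, followed at 0.40 with -0.80, -0.35 and -0.83 by the authors' deposited tables. X4b_DNA, BGLII, RLTR1D2_MM and RLTR13B1 came next at distances from 0.59 to 0.68. B2_Mm1a and B2_Mm1t lay 0.21 from each other, but the target is their own mean, so this is not comparable with the distances of the other rows. No error was computed for the distances. In NPCs the SE was 0.32 for B2_Mm1a and 0.37 for MER34B-int by the authors' deposited table. B2_Mm2 held only place 40 at a distance of 0.98, B3 place 240 and B3A place 339. The likeness is over 3 cell types only and is a description of these values.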

How the data were processed

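RNA of 18 libraries in 6 groups of 3 was sequenced as stranded, paired-end poly(A) libraries per the labels' protocols. The submitters' processing notes name featureCounts, DESeq2, TopHat2 2.0.13, Trim Galore, deepTools and Bowtie2 without their roles, and build mm10. Handling of multiply placed reads and of strand is not given in the sources used, so B2_Mm1a and B2_Mm1t, or B3 and B3A, may share reads. Per the file headers the authors deposited DESeq2 results, 1 table per cell type. The base mean is a signal that the authors computed as the mean of size-factor-normalised reads. The log2 fold change and its SE are the authors' log2 values, deposited without the numerator. The Wald statistic is a score of the authors, equal to the fold change over its SE within a relative 1e-06 in all tested rows. The authors also deposited the p-value and its Benjamini-Hochberg adjustment, used as they stand. Rows with a base mean under 1 had absolute log2 values of at most 0.42. Their SEs could be small too, such as 0.11 for CENSAT_MC in ESCs at a base mean of 0.171. Fold changes shrunken towards 0 would also give such values, but shrinkage is not stated and was not tested. The implied group means, the comparisons of SEs and the differences between cell types take the values as deposited. Depth per library is unknown, so no counting interval is given.

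Computed here, with Python 3.11.15, numpy 2.4.6, pandas 2.3.3 and scipy 1.17.1, were 95% intervals, read shares, implied group means and differences between cell types (normal p, Benjamini-Hochberg over all rows tested in both tables, checked on simulated data). The simulated errors were normal, independent and scaled by the deposited SEs. They therefore check the computation only, and cannot show whether those SEs are right. Figures used matplotlib 3.10.9. Named rows are the 5 members, B1, B4, ID and polymerase III rows listed beforehand, and the 6 rows nearest to the young pair. The branch for count tables in the plan did not apply. Members and lists were chosen with earlier results of these data known. The 6 alternatives tried per result are in the closing section. No sequence of a B2 or B3 element was used here.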

Additional observations from a re-analysis of the deposited data

Results flagged for a closer look

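For 3 members the fold change differed between ESCs and macrophages by the test of the difference itself, taking both tables as oriented alike. Of the 1124 rows tested in both, 23.7% differed. The difference ESC minus macrophage was -0.86 for B2_Mm1a, -0.91 for B2_Mm1t and -0.38 for B2_Mm2 on the log2 scale. The cell types also differ in strain background and in the dose of NVP-AUY922, and these cannot be told apart.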

How the results depend on the processing

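No paired analysis was possible because the tables hold no values per library, and for the same reason no replicate could be left out. All alternatives reuse the deposited fold changes and SEs, so alignment, counting and the authors' model fit were not varied. The count of 3 members past the test in ESCs was the same under all 6 alternatives, as was the count of 0 in NPCs. In macrophages the count was 1 (B3A) at a threshold of 0.1 and 0 under the other alternatives. At that threshold 395 of all 1255 tested macrophage rows passed. The count of 3 members that differ between ESCs and macrophages was 2 with Benjamini-Yekutieli adjustment, where B2_Mm1a no longer passed, with an adjusted p of 0.0704, and 3 otherwise. The share of all rows that differ between cell types was computed for the main setting only. With the sign of the second table turned, 2 members differed between ESCs and NPCs and 2 between macrophages and NPCs, in place of 0. With that turn the difference of B2_Mm1a reversed to -1.10 and that of B2_Mm1t to -0.83 between macrophages and NPCs, and B3A reversed to 0.0652 between ESCs and macrophages and to 0.0276 between ESCs and NPCs. These follow from the turned sign. Of all rows, 166 passed in ESCs, 212 in macrophages and 89 in NPCs with Benjamini-Yekutieli adjustment, in place of 251, 324 and 147, and 95 in NPCs at a threshold of 0.01, as these settings are stricter. The other settings kept these counts within 1.5 times. Depth per library is unknown, and the SEs of the young B2 rows set the width of their intervals.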

Other observations

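Transfer RNA rows, whose genes share the ancestry and the promoter type of B2 elements, carried few reads. In ESCs 16 of the 60 rows were tested, of which 4 were positive and 0 negative, with a median of 0.07, against 22.2% of all tested ESC rows past the test on either side. The rows were those of the tRNAs for glycine, histidine, lysine and proline, between 0.58 and 1.13 in the authors' deposited table at base means of 19.3 to 72.7. In macrophages 1 of 42 was positive and 1 negative, and in NPCs 3 of 41 were positive and 1 negative, with medians of -0.09 and -0.02, against 25.8% and 11.8% of all tested rows on either side. The histidine row had 1.13 ± 0.32 in ESCs and -0.87 ± 0.31 in macrophages by the authors' deposited tables, both past the test, at base means of 19.3 and 14.1. If both tables have the same orientation, the difference ESC minus macrophage was 1.997 ± 0.446, with an adjusted p of 0.000105 by the normal test over all rows tested in both. Of those rows 23.7% differed. The histidine row was picked for its opposite sides, so this p adds no support. The glycine row tRNA-Gly-GGY passed on the positive side in both, with 0.94 ± 0.29 in ESCs and 0.74 ± 0.27 in macrophages. These rows were named after their values were seen.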
